A study of Mus musculus with 24 samples.

Results

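Small RNA of obese mouse liver was compared between mice given an antisense oligonucleotide against miR-132 and mice given a control oligonucleotide. The comparison was set by the group labels and takes 16 of the 24 liver samples of the study, 8 labelled AM132 and 8 labelled AM608. All 16 came from C57Bl/6J mice made obese by 11 weeks of high fat diet. AM132 is a 16-mer of locked nucleic acid (LNA) with a sequence complementary to mature miR-132. AM608 is a 15-mer LNA directed at miR-608, a primate miRNA, for which the labels state no predicted complementary sequence in mice. Both were injected intravenously at 3.3 mg/kg on each of 3 days running, and the livers were collected 7 days after treatment. The remaining 8 samples, labelled RCD, came from lean mice on regular chow without injection and entered no test. No uninjected obese group is among the samples used here, so a difference between AM132 and AM608 can come from either oligonucleotide. Nothing in the labels says which animal a numbered sample came from, so a p-value here reflects only how much these samples vary.

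A miRNA hairpin is cut into a short duplex of 2 arms, named 5p and 3p. One arm, the guide, usually stays in an Argonaute protein and finds target mRNAs through its seed, bases 2 to 8, while the other arm, the passenger, is mostly discarded. An LNA carries sugars locked in a shape that strengthens base pairing, so a short LNA can hold a mature miRNA away from its targets. miR-132 and miR-212 are cut from one transcript, and miR-132 has been reported to repress genes of lipid metabolism in the liver. Fragments of transfer RNA (tRFs) are cut from the 5′ end, the 3′ CCA end or the inside of tRNAs.

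Several of the miRNAs with the largest differences share a stretch of sequence with miR-132-3p, the target of AM132, and these sequences are shown first. They are from RefSeq (GRCm38.p6). Capitals mark the bases that match miR-132-3p in the best alignment without gaps, in which each match adds 1 to the score and each mismatch takes 1 away. This score was added after the values were seen. All 10 miRNAs of this kind that were lower in AM132 had an aligned stretch that covered bases 7 to 9 of miR-132-3p. These bases did not all match in each of them, as in let-7b-3p, miR-30e-3p and miR-455-3p. The stretches of miR-214-5p, miR-140-3p and miR-30c-5p, which were not called, covered the same bases, so this does not set the lower miRNAs apart. The LNA sequences themselves were not given in the sources used here.
miR-132-3p: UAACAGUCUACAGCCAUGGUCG
miR-212-3p: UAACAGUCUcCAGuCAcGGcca
let-7f-2-3p: cuauACAGUCUACugucuuuc
miR-28a-5p: aaggagcucACAGUCUAuugag
miR-455-3p: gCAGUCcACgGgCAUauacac
let-7a-1-3p, identical to the 3p arm of let-7c-2: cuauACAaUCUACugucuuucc
let-7b-3p: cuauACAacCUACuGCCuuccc
let-7f-1-3p: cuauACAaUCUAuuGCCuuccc
miR-139-5p: UCUACAGugcacgugucuccag
miR-30e-3p: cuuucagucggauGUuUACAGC
miR-7a-1-3p: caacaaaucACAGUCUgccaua

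The 4 miRNAs with a score as high whose levels did not pass the test are shown in the same way for contrast.
miR-214-5p: ugccuGUCUACAcuugcugugc
miR-140-3p: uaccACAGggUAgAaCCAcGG
miR-30c-5p: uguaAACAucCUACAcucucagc
let-7i-3p: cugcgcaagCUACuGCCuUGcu

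Further miRNAs among the called ones with the smallest p-values are shown with the seed in capitals, and their scores are 4 to 6.
miR-582-5p: aUACAGUUguucaaccaguuac
miR-664-3p: uAUUCAUUuacuccccagccua
miR-25-3p: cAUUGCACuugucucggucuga
miR-674-3p: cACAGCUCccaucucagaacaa
miR-192-5p: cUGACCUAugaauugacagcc
miR-194-5p: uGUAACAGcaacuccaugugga

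The libraries held 5926983 to 8734721 miRNA counts in AM132 and 6855571 to 8532049 in AM608. tRF counts were far fewer, at 25849 to 80578 in AM132 and 29889 to 46567 in AM608. Levels are given in CPM, the usual count rate of a feature in its library, taken over the tested features with scaling factors by the trimmed mean of M values (TMM). These factors were 0.855 to 1.00 in AM132 and 0.974 to 1.21 in AM608, so they move with the group. The tissue label was checked by miR-122-5p, made almost only by hepatocytes, which took 20.3 to 27.5% of the counts in every library. AM132 library 8 stood apart in its tRFs, with 80578 counts, of which 50.1% lay in tested tRFs against 87.5 to 90.2% in the other libraries. AM132 library 1 was the highest of the AM132 libraries for each of the 10 lower miRNAs most like miR-132-3p.

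miR-132-3p was not counted in any AM132 library. The AM608 libraries held 92 to 341 counts of it, with a lowest level of 12.98, a median of 22.1 and a highest of 35.2 CPM. Set against a limit of 3 counts summed over the 8 AM132 libraries (0.0583 CPM), its level was at least 397-fold lower, and the edgeR adjusted p was 1.89e-08. This is a bound on counted reads, and loss of the molecule and failure to enter the library cannot be told apart here. miR-212-3p, with the same seed and 16 of 19 aligned bases in common with miR-132-3p, had 0 to 6 counts in AM132 (median 3) and 2 to 27 in AM608 (median 12.5), too few to be tested in this fit. miR-132-5p, the other arm of the same hairpin, ran from 15.7 through a median of 25.2 to 28.3 CPM in AM132 and from 17.5 through 31.6 to 46.5 CPM in AM608. The groups overlapped, and its log2 fold change of −0.33 did not pass (SE 0.171, edgeR adjusted p = 0.191). miR-212-5p had a log2 fold change of −0.50 and did not pass either (SE 0.184, edgeR adjusted p = 0.0623). Scaled by library totals, both 5p arms passed as lower, at −0.57 and −0.73.

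Of 399 miRNAs tested, 87 differed between AM132 and AM608 at an edgeR adjusted p under 0.05, which is 21.8%. In AM132, 35 were higher (8.77%) and 52 were lower (13%). The higher ones changed little, with a median log2 fold change of 0.47 and 4 above 1, but included several of the most abundant liver miRNAs. The lower ones had a median log2 fold change of −0.69, and 16 changed by more than 1 in size. The values of the 8 AM132 and the 8 AM608 libraries did not overlap for 30 miRNAs (7.52%), 8 with AM132 above (2.01%) and 22 with AM132 below (5.51%). This split depends on the scaling: scaled by library totals, the median log2 fold change over the tested miRNAs moved by −0.22, and 12 were called higher and 117 lower. Many of the small increases are therefore not found relative to the total of counts.

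**Figure D1:**
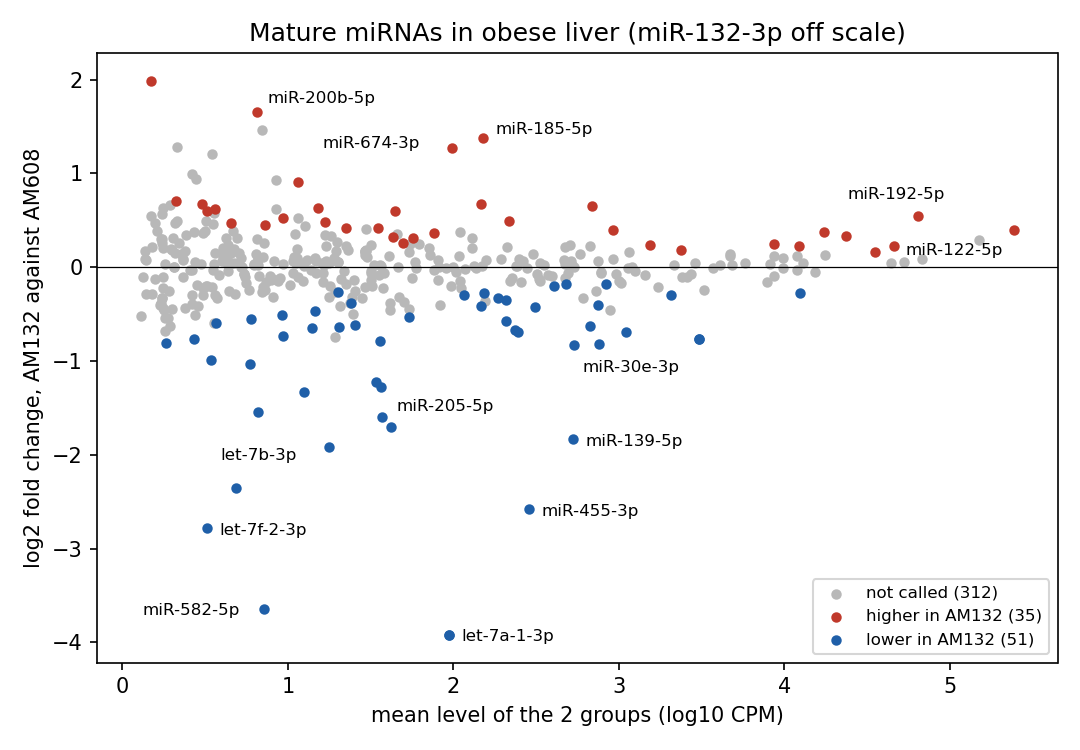
Log2 fold change of each tested miRNA in AM132 against AM608 (vertical axis) against its mean level in the 2 groups in log10 CPM (horizontal axis), one point per miRNA, coloured by the edgeR call. The lower miRNAs reach −3.92 (let-7a-1-3p), apart from miR-132-3p, which is off scale, while miR-122-5p and miR-192-5p, at the right, are higher by 0.39 and 0.55.

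Several of the large falls besides that of miR-132-3p were in miRNAs that carry part of its sequence. Others, such as those of miR-582-5p and miR-664-3p, were in miRNAs with a score under 7. The score was added after the values were seen, so the counts below describe these data and are no test. Of the 349 other tested miRNAs with a RefSeq sequence, 14 had a score of 7 or more, and 10 of these were lower and none higher, with a median log2 fold change of −1.33. Among all 349, 45 (12.9%) were lower and 28 (8.02%) higher, with a median of 0.00. Among the 304 with a score of 5 or less, 33 (10.9%) were lower, and among the 31 with a score of 6, 2 were. For 9 of the 14 every AM132 library lay below every AM608 library. The 10 lower miRNAs hold 9 distinct sequences, because let-7c-2-3p is identical to let-7a-1-3p and their counts cannot be told apart. Those of let-7a-1, let-7c-2, let-7b, let-7f-1 and let-7f-2 are related, being passenger strands of the let-7 family.

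let-7a-1-3p, a passenger strand of the let-7 family, ran from 5.47 through a median of 9.95 to 26.5 CPM in AM132 and from 154 through 176 to 195 CPM in AM608. The groups were far apart, with the highest AM132 library below the lowest AM608 library. The log2 fold change was −3.92, with an SE of 0.234 (edgeR adjusted p = 6.31e-10). let-7f-2-3p, which shares 9 bases in a row with miR-132-3p, the longest run of any tested miRNA but miR-132-3p itself, ran from 0 through 0.606 to 3.01 CPM in AM132 and from 4.22 through 5.56 to 6.74 CPM in AM608. Although these are low levels, no library of one group reached the other, and the log2 fold change was −2.79, with an SE of 0.426 (edgeR adjusted p = 8.77e-05), and −3.37 without AM132 library 1. let-7f-1-3p ran from 0.342 through 1.55 to 3.39 CPM in AM132 and from 7.43 through 7.82 to 9.77 CPM in AM608. All AM132 libraries lay lower, by a log2 fold change of −2.36, with an SE of 0.237 (edgeR adjusted p = 3.80e-07). let-7b-3p ran from 4.27 through 7.27 to 12.4 CPM in AM132 and from 21.7 through 28.6 to 32.6 CPM in AM608. It too was lower in all AM132 libraries, at a log2 fold change of −1.92, with an SE of 0.173 (edgeR adjusted p = 1.49e-07).

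Outside the let-7 family, miR-455-3p ran from 21.8 through 53.4 to 314 CPM in AM132 and from 381 through 510 to 570 CPM in AM608. There was no overlap, but AM132 library 1 at 314 CPM stood far above the other AM132 libraries, the next of which had 99.4 CPM. The log2 fold change was −2.58, with an SE of 0.473 (edgeR adjusted p = 7.72e-04), and without AM132 library 1 it was −3.30. miR-139-5p, a miRNA hosted by Pde2a, ran from 176 through 198 to 441 CPM in AM132 and from 727 through 820 to 993 CPM in AM608. Again the groups did not overlap and library 1 was the highest of AM132, and the log2 fold change was −1.83, with an SE of 0.167 (edgeR adjusted p = 1.82e-07).

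The remaining members of this set changed less. miR-30e-3p, whose match lies at its 3′ end, ran from 265 through 391 to 538 CPM in AM132 and from 642 through 689 to 744 CPM in AM608, a log2 fold change of −0.83, with an SE of 0.10 (edgeR adjusted p = 5.49e-06). miR-28a-5p, which shares 8 bases in a row, ran from 146 through 183 to 248 CPM in AM132 and from 269 through 303 to 356 CPM in AM608, a log2 fold change of −0.69, with an SE of 0.0883 (edgeR adjusted p = 9.38e-06). Neither overlapped between the groups. miR-7a-1-3p, which shares 7 bases in a row, ran from 2.77 through 4.41 to 8.28 CPM in AM132 and from 5.99 through 7.06 to 9.03 CPM in AM608. Here the groups overlapped, and the log2 fold change was −0.56, with an SE of 0.187 (edgeR adjusted p = 0.0402). By hairpin or mature sequence in GRCm38, Mir7-1 lies within Hnrnpk (chromosome 13, 58392779 to 58392886), Mir30e within Nfyc (chromosome 4, 120772606 to 120772697) and Mirlet7f-2 within Huwe1 (chromosome X, 151912346 to 151912428). Mature miR-455-3p lies within Col27a1 (chromosome 4, 63256904 to 63256924) and miR-28a-5p within Lpp (chromosome 16, 24827868 to 24827889). All 5 lie on the same strand as these protein-coding genes and overlap none of their annotated exons.

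**Figure D2:**
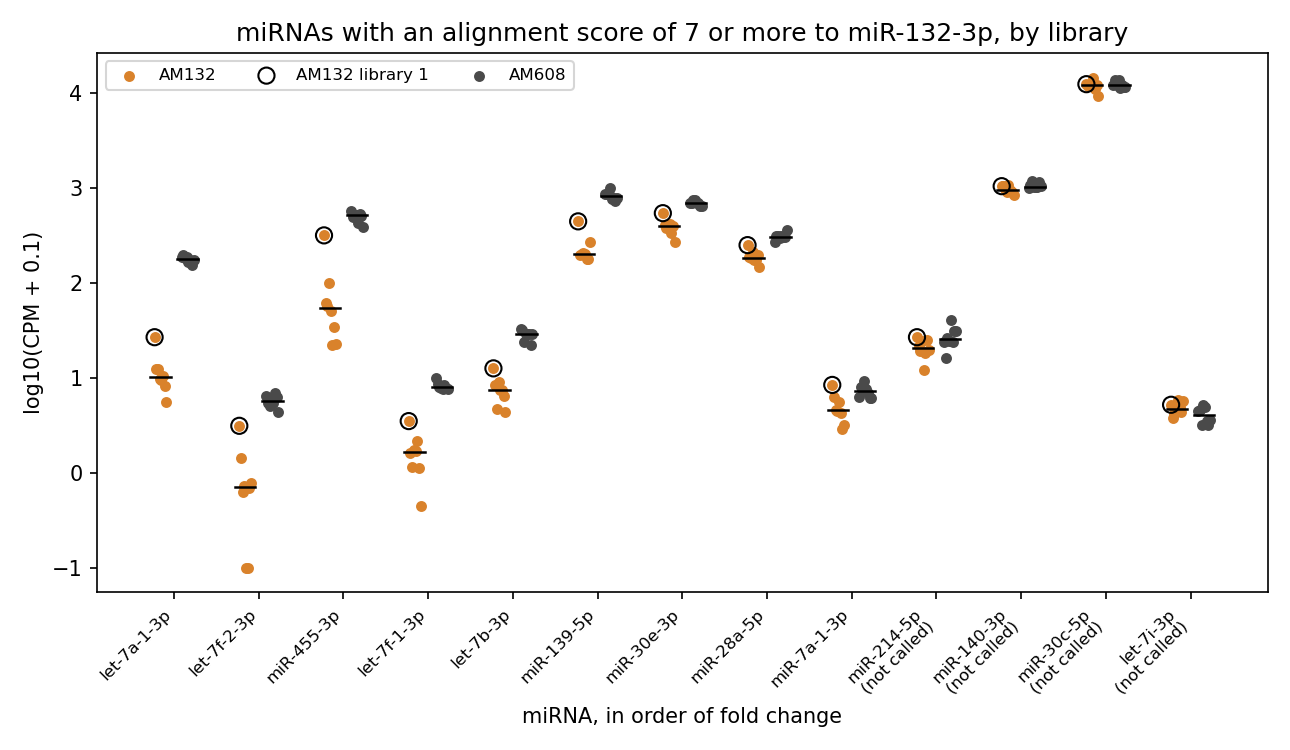
Level of each miRNA with an alignment score of 7 or more to miR-132-3p in each library, in log10(CPM + 0.1), for AM132 and AM608, with the group medians as bars and AM132 library 1 ringed (let-7c-2-3p, identical to let-7a-1-3p, is left out). In the 9 called miRNAs shown, AM132 library 1 is the highest AM132 point, and for miR-455-3p it reaches 314 CPM against a median of 53.4.

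The 4 miRNAs that had a score of 7 or more and did not pass were miR-214-5p, miR-140-3p, miR-30c-5p and let-7i-3p. Their log2 fold changes were −0.38 (edgeR adjusted p = 0.133), −0.14 (0.0973), −0.03 (0.798) and 0.24 (0.271). miR-30c-5p, at a median of 12140 CPM in AM132 and 11960 in AM608, was the most abundant of the 14. By the longest run alone, 5 miRNAs shared 7 or more bases in a row with miR-132-3p, and 4 of them were lower, all but miR-214-5p. Of the 17 that shared 6 bases in a row, 1 was lower and 3 were higher, miR-192-5p, miR-194-5p and miR-15b-5p.

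**Figure D3:**
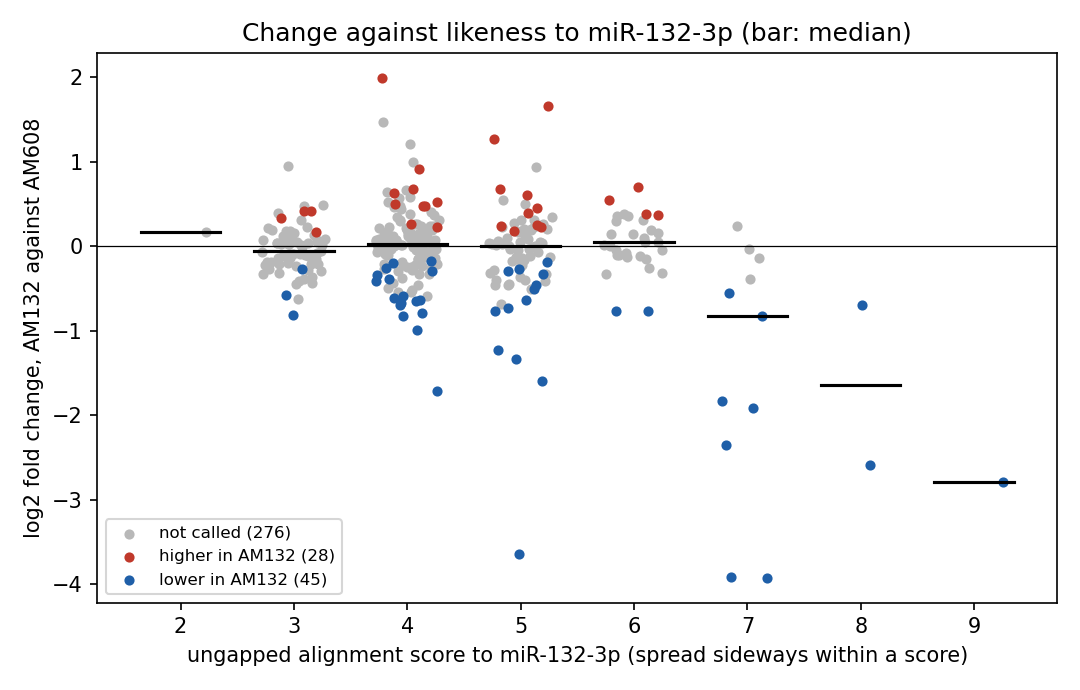
Log2 fold change in AM132 against AM608 (vertical axis) of the 349 miRNAs with a sequence, against the score of their best ungapped alignment to miR-132-3p (horizontal axis), coloured by call, with the median of each score as a bar. The medians lie near 0 up to a score of 6, and 10 of the 14 miRNAs at 7 or more are lower.

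Within the AM132 group, library 1 was the highest of the 8 for all 10 lower members, and AM132 library 8 was the lowest for 6 of them. miR-132-3p itself had no count in library 1 either. Without library 1 the count of called miRNAs was 86, of which 80 were shared. The lean RCD liver lay on the side of AM608 for this set: on the scale of all 24 libraries the RCD mean was nearer to the AM608 mean for 10 of 10, and the AM608 mean, but not the AM132 mean, lay within the range of the RCD libraries for 10 of 10. For let-7a-1-3p the mean was 11.96 CPM in AM132, 177 CPM in AM608 and 199 CPM in the lean livers. For miR-139-5p it was 238, 832 and 807 CPM in the same order. Over all 87 called miRNAs the RCD mean was nearer to AM132 for 40 and nearer to AM608 for 47. RCD differs from both obese groups in diet and in injection.

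Where both arms come from a single precursor, their ratio within a library shows whether one arm changed apart from the other, with no scaling of libraries. Some arms cannot be given to a single hairpin. let-7f-5p is shared by Mirlet7f-1 and Mirlet7f-2, and let-7a-1-3p is identical to let-7c-2-3p. Such an arm enters each ratio with all its counts, so ratios like that of Mirlet7a-1 mix precursors. The 5p to 3p ratio was tested by limma in 103 hairpins, and 33 differed (32%), 21 with a gain of the 5p arm (20.4%) and 12 with a gain of the 3p arm (11.7%). The arm that changed more was the less abundant one and lower in 18 of the 33, the less abundant one and higher in 7, the abundant one and lower in 6, and the abundant one and higher in 2. Among these 33 the arm that changed more was therefore usually the less abundant one. How often that holds over all 103 hairpins was not counted, so it cannot be read as a trait of the called ones. For Mirlet7a-1 the log2 ratio rose from 6.38 to 6.68 in AM608 to 9.46 to 11.3 in AM132, a difference of 4.16 (SE 0.189, limma adjusted p = 2.30e-13). The ranges lay far apart. Its guide let-7a-5p had a log2 fold change of 0.13 and did not pass (edgeR adjusted p = 0.191).

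Mir139 was a case where the abundant guide arm moved. Its log2 ratio of 5p to 3p fell from a mean of 6.59 in AM608 to 4.82 in AM132, a difference of −1.77 (SE 0.174, limma adjusted p = 5.06e-08), while miR-139-3p overlapped between the groups (6.52 to 10.05 CPM in AM132 and 7.37 to 9.95 CPM in AM608). For Mir455 the difference was 3.52 (SE 0.355, limma adjusted p = 4.43e-07), and for Mir28a it was −0.68 (SE 0.0861, limma adjusted p = 1.39e-06). In each of these the arm that fell is the one with the match to miR-132-3p. The arm with the match was also the one that fell in Mir30e, with a ratio difference of 1.10 (SE 0.125, limma adjusted p = 4.43e-07), and in Mir7-1, with 0.73 (SE 0.169, limma adjusted p = 1.73e-03). All these arms were already among the lower miRNAs with a match above, so the pattern is no separate evidence. Ratios of hairpins whose matching arm was not called are not given here.

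Among the hairpins of the ratio test, both arms were called in opposite directions in 4. On the log2 scale miR-30e-5p rose by 0.24 while miR-30e-3p fell by 0.83. miR-455-5p rose by 0.39, and its 3p arm fell by 2.58. miR-15b-5p rose by 0.37 and miR-15b-3p fell by 0.38, and miR-30a-5p rose by 0.23 and miR-30a-3p fell by 0.30. The rises of these 5p arms are small: those of miR-30e-5p, miR-30a-5p and miR-455-5p are 0.04, 0.02 and 0.19 with library totals and are then not called. The calls of miR-30e-5p and miR-30a-5p were also lost without AM132 library 8 (0.22 and 0.23), and that of miR-455-5p without AM132 library 1 (0.36).

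**Figure D4:**
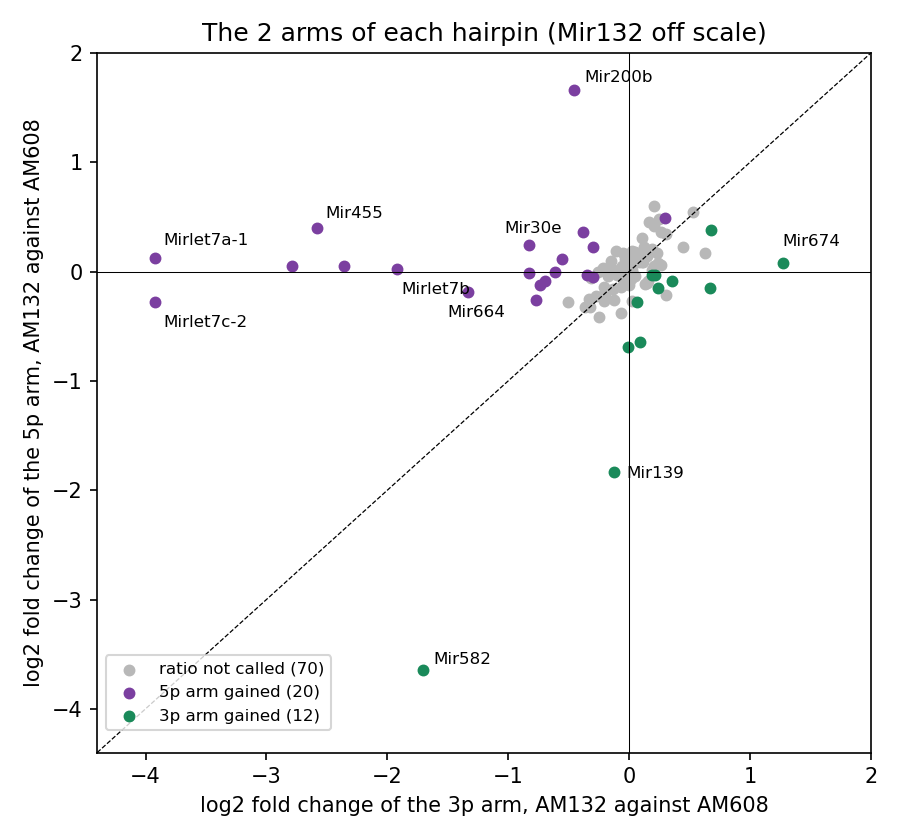
Log2 fold change in AM132 against AM608 of the 5p arm (vertical axis) and the 3p arm (horizontal axis) of each hairpin with both arms tested, coloured by the limma call on their ratio, with equal change as a dashed line. The hairpins on the left (Mirlet7a-1, Mirlet7c-2, Mir455) have a 3p arm that fell with a 5p arm near 0, Mir139 and Mir582 lie below the line, and Mir132 is off scale.

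Across the let-7 family, whose guide strands restrain growth-promoting genes, 7 of 10 tested passenger strands fell and none rose, with a median log2 fold change of −1.37 beside 0.01 over all tested miRNAs. Over all 399 tested miRNAs 13% were lower. Because let-7c-2-3p has the same sequence as let-7a-1-3p, a single sequence enters the passenger count under both names. Apart from let-7d-3p and let-7e-3p, the falling strands were already counted among the lower miRNAs with a score of 7 or more. They are therefore no separate evidence. let-7d-3p ran from 383 through 533 to 797 CPM in AM132 and from 853 through 967 to 1090 CPM in AM608, without overlap, a log2 fold change of −0.82, with an SE of 0.110 (edgeR adjusted p = 1.68e-05). Its alignment score to miR-132-3p is 4, and that of let-7e-3p, which fell by 0.74 on the log2 scale (SE 0.153, edgeR adjusted p = 1.84e-03), is 5. The passengers let-7c-1-3p and miR-98-3p had log2 fold changes of 0.07 and 0.00 and did not pass. The seed UAUACAA was shared by 5 tested miRNAs, and all but miR-98-3p were lower. This seed count also holds the let-7a-1-3p sequence under both of its names. Of the 9 tested guide strands 1 rose, let-7g-5p by 0.23, and 1 fell, let-7c-5p by 0.27 on the log2 scale. With library totals none of the guides rose and 5 fell, while the passengers kept their 7 falls. The median of the guides was then −0.18, beside −0.21 over all tested miRNAs.

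miR-582, hosted by Pde4d, fell in both arms without a long match to miR-132-3p. miR-582-5p ran from 0.134 through 1.02 to 2.50 CPM in AM132 and from 5.10 through 13.3 to 20.4 CPM in AM608. The groups did not overlap, and the log2 fold change was −3.65, with an SE of 0.350 (edgeR adjusted p = 2.62e-07). miR-582-3p ran from 6.21 through 17.2 to 35.7 CPM in AM132 and from 31.4 through 71.2 to 91.1 CPM in AM608, with a log2 fold change of −1.71, with an SE of 0.340 (edgeR adjusted p = 1.57e-03). Its groups overlapped slightly, and the 5p arm fell by 1.84 more than the 3p arm on the log2 scale (SE 0.348, limma adjusted p = 2.97e-04). In lean RCD liver the means were 1.01 CPM for miR-582-5p and 2.77 CPM for miR-582-3p, against 1.09 and 20.2 in AM132 and 13.2 and 64.5 in AM608. Here the RCD level was on the side of AM132, unlike in the set that resembles miR-132-3p.

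The same held for miR-676-5p and miR-205-5p. miR-676-5p, whose hairpin lies in Eda on chromosome X, ran from 16.1 through 20.7 to 30.2 CPM in AM132 and from 44.9 through 52.7 to 56.4 CPM in AM608. Here too there was no overlap (log2 fold change −1.27, SE 0.121, edgeR adjusted p = 1.82e-07), and the RCD mean was 22.7 CPM. miR-205-5p, a miRNA of stratified and glandular epithelia, ran from 4.14 through 15.1 to 43.6 CPM in AM132 and from 25.4 through 56.0 to 83.9 CPM in AM608. The groups overlapped (log2 fold change −1.59, SE 0.431, edgeR adjusted p = 0.0141), and the RCD mean was 1.95 CPM.

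miR-34a-5p, a target of p53 that represses the deacetylase gene Sirt1, ran from 19.3 through 27.5 to 33.0 CPM in AM132 and from 34 through 46.8 to 53.2 CPM in AM608. The groups did not overlap, and the log2 fold change was −0.79, with an SE of 0.115 (edgeR adjusted p = 4.74e-05). miR-34c-5p, of the same family and much scarcer, fell by 1.03 on the log2 scale with overlap (SE 0.260, edgeR adjusted p = 8.04e-03). Both of the 2 tested members of the family were thus lower, also with library totals.

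The cluster of Mir25, Mir93 and Mir106b, in Mcm7 on chromosome 5 (Mir25 at 138165321 to 138165404), had 3 of 6 tested products lower and none higher. miR-25-3p ran from 715 through 807 to 1174 CPM in AM132 and from 1231 through 1361 to 1515 CPM in AM608. The groups just failed to meet, with AM132 library 1 the highest of its group, and the log2 fold change was −0.70, with an SE of 0.0863 (edgeR adjusted p = 6.58e-06). miR-93-5p and miR-106b-3p fell by 0.20 and 0.27 on the log2 scale, and both calls were lost without AM132 library 8 (−0.18 and −0.26) or without AM132 library 1 (−0.19 and −0.24). Of the 14 tested miRNAs of the miR-17/92 cluster and its paralogs, 3 were lower, the same 3. Both counts stand beside 13% lower over all 399 tested miRNAs. Without AM132 library 8, or with RLE factors as another scaling, only miR-25-3p of the 14 was lower. With library totals 5 were lower, at a median log2 fold change of −0.36 beside −0.21 over all tested miRNAs.

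Some lower entries overlap genes of other small RNAs, so their counts may come from either. miR-664-3p, from a hairpin inside the snoRNA gene Snora36b on chromosome 1 (185242975 to 185243043), ran from 5.09 through 7.35 to 8.84 CPM in AM132 and from 14.03 through 17.3 to 22.6 CPM in AM608, without overlap (log2 fold change −1.33, SE 0.126, edgeR adjusted p = 1.82e-07). Its 5p arm had a log2 fold change of −0.18 and did not pass (edgeR adjusted p = 0.266), so the fall was on the 3p side. miR-1983, whose hairpin on chromosome 13 (21896918 to 21897049) encloses the tRNA-Ile(TAT) gene n-TItat14 in RefSeq, fell by 0.99 on the log2 scale with overlap (SE 0.272, edgeR adjusted p = 0.0143). Of the higher miRNAs, miR-3535 lies in the snoRNA gene Gm24148 and had a log2 fold change of 0.42, with an SE of 0.102 (edgeR adjusted p = 6.24e-03). That call was not reached with library totals (0.22).

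Among the higher miRNAs, miR-674-3p and miR-185-5p changed most of those with a mean above 10 CPM in both groups. miR-674-3p had a lowest level of 122 and a median of 139 CPM in AM132, and ran from 47.4 through 58.3 to 64.5 CPM in AM608. All AM132 libraries lay above, by a log2 fold change of 1.27, with an SE of 0.0754 (edgeR adjusted p = 6.31e-10). Its 5p arm had a log2 fold change of 0.08 and did not pass, and the 3p arm gained by 1.18 on the log2 scale within the hairpin (SE 0.116, limma adjusted p = 5.06e-08). miR-185-5p, reported to restrain genes of cholesterol uptake and synthesis, ran from 175 through 211 to 279 CPM in AM132 and from 62.3 through 76.0 to 115 CPM in AM608. Its groups did not overlap either (log2 fold change 1.37, SE 0.129, edgeR adjusted p = 1.82e-07), whereas miR-185-3p had a log2 fold change of −0.24 and did not pass (edgeR adjusted p = 0.43). The RCD means, 114 CPM for miR-674-3p and 165 CPM for miR-185-5p, were nearer to AM132 than to AM608.

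The products of the Mir194-2 and Mir192 cluster on chromosome 19 (6264643 to 6264932), abundant in liver, gut and kidney epithelia, moved together: 4 of 4 were higher. miR-192-5p ran from 67940 through 76560 to 84850 CPM in AM132 and from 45690 through 52680 to 60440 CPM in AM608. All AM132 libraries lay above, with a log2 fold change of 0.55, with an SE of 0.0670 (edgeR adjusted p = 5.97e-06). miR-194-5p, also made from Mir194-1 on chromosome 1, ran from 17740 through 18750 to 22890 CPM in AM132 and from 13440 through 14470 to 17690 CPM in AM608, a log2 fold change of 0.38, with an SE of 0.0718 (edgeR adjusted p = 8.14e-04). The highest AM608 and the lowest AM132 library nearly touched. miR-194-2-3p, the passenger, rose by 0.67 (SE 0.0914, edgeR adjusted p = 1.85e-05) and gained on its guide by 0.29 on the log2 scale (SE 0.0832, limma adjusted p = 8.51e-03). miR-192-3p rose by 0.53 (SE 0.183, edgeR adjusted p = 0.0462), a call lost without AM132 library 8 (0.40) and with library totals (0.33). miR-215-5p, which shares its seed with miR-192-5p and lies beside Mir194-1, had a log2 fold change of −0.46 and did not pass (edgeR adjusted p = 0.113). With library totals miR-215-5p was called lower.

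Of the 13 miRNAs listed as hepatocyte-abundant, 9 rose and 1 fell (miR-455-3p), with a median log2 fold change of 0.25. Over all 399 tested miRNAs 8.77% were higher and 13% lower. Not every listed miRNA was abundant here: miR-193a-3p had a mean of 8.62 CPM in AM132 and 6.20 CPM in AM608, on the scale of all 24 libraries. miR-122-5p ran from 227200 through 290500 to 321100 CPM in AM132 and from 172900 through 208800 to 247400 CPM in AM608. The groups overlapped only in part, and the log2 fold change was 0.39, with an SE of 0.0906 (edgeR adjusted p = 3.94e-03). miR-122-3p, the passenger arm, rose by 0.66 (SE 0.107, edgeR adjusted p = 1.50e-04). miR-101b-3p and miR-101a-3p, which repress the histone methyltransferase gene Ezh2, rose by 0.25 and 0.18, and miR-26a-5p, miR-30a-5p and miR-193a-3p by 0.17, 0.23 and 0.45. The rise is relative to other miRNAs: with library totals 4 of the 13 were higher and 2 lower, the median was 0.04 beside −0.21 for all tested miRNAs, and miR-101a-3p (−0.03) and miR-26a-5p (−0.04) changed sign. The call of miR-26a-5p was also lost without AM132 library 1 (0.15), and that of miR-193a-3p without AM132 library 8 (0.43). Without AM132 library 8, 7 of the 13 were higher and 1 lower. As shares of all miRNA counts, miR-122-5p took 22.8 to 27.5% in AM132 and 20.3 to 24.1% in AM608.

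Of the other higher miRNAs, miR-99a-5p, a repressor of the growth kinase gene Mtor, ran from 24660 through 25850 to 29530 CPM in AM132 and from 17750 through 21290 to 23700 CPM in AM608, without overlap (log2 fold change 0.33, SE 0.0646, edgeR adjusted p = 1.07e-03). With library totals it was not called (0.12). miR-148a-5p, the passenger of an abundant liver miRNA, rose by 0.49 without overlap (SE 0.103, edgeR adjusted p = 1.88e-03), and its guide miR-148a-3p had 0.29 and did not pass (edgeR adjusted p = 0.0644). miR-187-3p rose by 0.63 without overlap (SE 0.103, edgeR adjusted p = 1.51e-04), at a median of 18.3 CPM in AM132 and 11.6 in AM608. miR-200b-5p, a passenger strand of a cluster typical of epithelia, ran from 4.44 through 7.28 to 21.8 CPM in AM132 and from 0.732 through 2.98 to 6.11 CPM in AM608, with overlap (log2 fold change 1.66, SE 0.413, edgeR adjusted p = 8.04e-03). Within its hairpin the 5p arm gained by 2.08 (SE 0.166, limma adjusted p = 2.05e-09). The 3p arm, miR-200b-3p, had a log2 fold change of −0.46 and did not pass (edgeR adjusted p = 0.383).

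Of 20 tested regulators of lipids and sterols, 4 rose (miR-122-5p, miR-185-5p, miR-26a-5p and miR-33-5p) and 2 fell (miR-34a-5p and miR-128-3p), with a median log2 fold change of 0.04. Over all 399 tested miRNAs the shares were 8.77% higher and 13% lower, and the counts of this and the following lists stand beside those. With library totals 129 of the 399 were called, and only 9.3% of these calls were higher. The median log2 fold change over all tested miRNAs was then −0.21. List counts given below for library totals therefore stand beside a general shift downwards. miR-33-5p, which lies in the sterol regulator gene Srebf2 and represses the cholesterol exporter gene Abca1, rose by 0.47 at a median of 4.98 CPM against 3.87 (SE 0.165, edgeR adjusted p = 0.0476). That call was lost without AM132 library 8 (0.45) and with library totals (0.26), which leave 3 and 2 of the 20 higher. With library totals 7 fell. Of 15 regulators of insulin action and glucose, 2 rose and 1 fell, and with library totals none rose and 3 fell. Of 22 miRNAs reported higher in fatty liver, none rose and 5 fell: miR-132-3p, miR-205-5p, miR-429-3p, miR-34a-5p and miR-199a-3p. The first of these is the target of AM132 itself. With library totals 9 of the 22 fell, and the median log2 fold change went from −0.20 to −0.44. miR-802-5p, often raised in obese liver, had a log2 fold change of −0.01, and miR-21a-5p 0.09, and neither passed.

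In the miR-30 family 4 of 11 rose and 3 fell, and with library totals none rose and 4 fell. miR-30b-5p fell by 0.43 (SE 0.0870, edgeR adjusted p = 1.57e-03) and its passenger miR-30b-3p rose by 0.32 on the log2 scale (SE 0.0680, edgeR adjusted p = 2.21e-03). Of 20 tested miRNAs of the imprinted Dlk1-Dio3 cluster none was called by edgeR at an adjusted p under 0.05, with a median log2 fold change of 0.28 and 18 of 20 above 0. With library totals the median was 0.06. Of 14 tested fibrosis miRNAs, none rose and 2 fell, miR-34a-5p and miR-199a-3p, and with library totals 5 fell.

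Markers of other cells of the liver were compared in the same fit. In bulk liver, fewer cells of a type and less RNA per cell cannot be told apart. Of 9 stellate and mesenchymal markers 2 fell, miR-199a-3p and miR-199b-3p, which are counted almost alike, by 0.77 on the log2 scale each (SE 0.206, edgeR adjusted p = 0.014). miR-199a-3p ran from 1158 through 2400 to 3727 CPM in AM132 and from 2546 through 3946 to 5068 CPM in AM608, with overlap. Summed, the 9 markers ran from 11020 to 18750 CPM in AM132 and from 12920 to 22390 in AM608. Of 7 biliary epithelial markers miR-200b-5p rose and miR-429-3p fell, the latter by 1.22 (SE 0.373, edgeR adjusted p = 0.0277) and not without AM132 library 8 (−1.16). Their sum ran from 812 to 2416 CPM in AM132 and from 583 to 3265 in AM608. Of 6 leukocyte markers miR-146b-5p fell by 0.67 (SE 0.210, edgeR adjusted p = 0.0301), a call lost without AM132 library 8 or library 1 (−0.66 each). The sum of the leukocyte markers was 3682 to 6523 CPM in AM132 and 4304 to 6896 in AM608.

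Of the other marker lists, 1 of 4 tested neuronal markers fell, miR-128-3p by 0.18 on the log2 scale, and not without AM132 library 8. None of the 2 endothelial, 3 erythroid and 2 muscle markers passed. miR-133b-3p, a muscle marker, was at 0 in all 16 libraries. With library totals 6 of the 9 stellate markers and both endothelial markers were lower. That scaling called 129 of all 399 tested miRNAs, with only 9.3% of these calls higher. The median log2 fold change of all tested miRNAs was then −0.21, and the endothelial values of −0.28 and −0.17 lay near it. The part of other cells in the miRNA differences was not tested.

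tRF sequences were read from the deposited names, which encode them. The called tRFs that the naming rule gives are shown with their sequences as DNA letters, in the groups they fall into. A parent tRNA is named from general knowledge of tRNA sequences, because the reference used here gives most tRNA genes without sequence. The first group comes from 5′ ends, of tRNA-Ser, tRNA-Lys(TTT) and tRNA-Ala in turn.
tRF-16-S3M830E: gtagtcgtggccgagt
tRF-18-PS5P4P0K: gcccggatagctcagtcg
tRF-21-PS5P4PW3B: gcccggatagctcagtcggta
tRF-20-R29P4P9L: ggggatgtagctcagtggta
tRF-24-R29P4P9LH9: ggggatgtagctcagtggtagagc

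The second group ends at or next to the 3′ CCA that is added to mature tRNAs, with 3 fragments of tRNA-Ala type and 1 of tRNA-Gly type.
tRF-22-8EKSPM852: tcaatccccggcatctccacca
tRF-21-WEKSPM85D: tcgatccccggcatctccacc
tRF-22-WEKSP1852: tcgatccccggcacctccacca
tRF-22-WE8SPOL52: tcgattcccggccaacgcacca

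The last 2 come from the 5′ part of tRNA-His and the inside of tRNA-Val.
tRF-30-34HWH3RXSINH: ccgtgatcgtatagtggttagtactctgcg
tRF-16-MNH5SYD: cggttatcacgtctgc

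Of 290 tested tRFs, 13 differed at an edgeR adjusted p under 0.05 (4.48%), 10 higher (3.45%) and 3 lower (1.03%) in AM132. For 3 of the 290 (1.03%) the groups did not overlap, 2 with AM132 above (0.69%) and 1 with AM132 below (0.345%). When the tRF counts were scaled by the miRNA libraries, 13 were higher and 1 was lower. The total of tRF counts relative to miRNA counts did not differ detectably: the log2 ratio was −7.61 ± 0.557 in AM132 and −7.65 ± 0.177 in AM608 (SD, n = 8 each), a difference of 0.04 (2-sided exact permutation test, p = 0.913). AM132 library 8 was far above the others in that ratio, at 12.4 tRF counts per 1000 miRNA counts. The other AM132 libraries ran from 3.6 to 5.35 and the AM608 libraries from 4.11 to 5.5. The AM132 mean and SD in this test therefore depend strongly on library 8.

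The tRF with the smallest p was the 16-nt piece of the tRNA-Ser 5′ end. tRF-16-S3M830E ran from 1084 through 1468 to 2559 CPM of the tRF counts in AM132 and from 4570 through 6241 to 9059 CPM in AM608. The groups were well apart, with a log2 fold change of −1.95, with an SE of 0.200 (edgeR adjusted p = 3.36e-06), and the mean in RCD, on the scale of all 24 libraries, was 7061 CPM, near the AM608 mean of 6271. None of the 3 longer fragments tested with the same 5′ end was called by edgeR. The 18-nt fragment tRF-18-S3M83004 had 0.32 (edgeR adjusted p = 0.644) and −0.28 without AM132 library 8. The 23-nt and 24-nt fragments had log2 fold changes of 3.30 and 2.74, which were 0.03 and 0.05 without AM132 library 8.

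Fragments of the tRNA-Lys(TTT) 5′ end were higher at some lengths. tRF-21-PS5P4PW3B ran from 1651 through 2502 to 7278 CPM in AM132 and from 538 through 906 to 1269 CPM in AM608. The groups did not overlap, the log2 fold change was 1.63, with an SE of 0.291 (edgeR adjusted p = 3.32e-03), and it was 1.30 without AM132 library 8. tRF-18-PS5P4P0K ran from 1410 through 2332 to 22640 CPM in AM132 and from 336 through 813 to 1879 CPM in AM608, a log2 fold change of 2.40, with an SE of 0.581 (edgeR adjusted p = 0.0405) that was 1.42 without AM132 library 8, the highest library. Of the 8 tested fragments of this 5′ end 2 were higher, both of these, and 7 lay above 0. The 19-nt fragment, the most abundant of them, had 0.62 and did not pass (edgeR adjusted p = 0.304), and the 26-nt and 30-nt fragments had −0.21 and 0.06.

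tRNA-Lys(CTT), whose 5′ end differs little in sequence, had none of 7 tested fragments called, with a median log2 fold change of −0.08. Its 30-nt fragments tRF-30-PSQP4PW3FJIK and tRF-30-PSQP4PW3FJI0 had −0.14 and −0.08 (edgeR adjusted p = 0.653 and 0.896). The 5′ fragments of tRNA-Glu(TTC) include the most abundant tRF, tRF-26-86J8WPMN1EE, which ran from 33540 through 112500 to 134900 CPM in AM132 and from 120200 through 154100 to 203600 CPM in AM608. None of the 8 tested was called, with all 8 below 0 and a median of −0.60, and tRF-26-86J8WPMN1EE at −0.58 (SE 0.217, edgeR adjusted p = 0.148). The lowest values are those of AM132 library 8, and without that library tRF-27-86J8WPMN1E5 passed at −0.48.

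The tRNA-Ala 5′ end gave calls in both directions by length. tRF-20-R29P4P9L ran from 788 through 1045 to 13030 CPM in AM132 and from 258 through 509 to 713 CPM in AM608. The groups did not overlap, and the log2 fold change was 2.26, with an SE of 0.588 (edgeR adjusted p = 0.0405), falling to 0.98 without AM132 library 8. tRF-24-R29P4P9LH9, which is 4 bases longer, ran from 2684 through 3457 to 5388 CPM in AM132 and from 3965 through 5896 to 7550 CPM in AM608, with overlap and a log2 fold change of −0.69, with an SE of 0.178 (edgeR adjusted p = 0.0405). tRF-18-R29P4P04, named here after its value was seen, was higher by 1.55 (SE 0.429, edgeR adjusted p = 0.0458), and not called without AM132 library 8 (0.97). The 16-nt and 19-nt fragments had 1.39 and 1.45 and did not pass (edgeR adjusted p = 0.0545 and 0.0865), with 0.82 and 0.69 without AM132 library 8. The 21-nt and 23-nt fragments had 1.2 and 1.29 and did not pass either (edgeR adjusted p = 0.358 and 0.346), and had −0.60 and −0.79 without that library.

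At the 3′ end the calls were among the 21-nt and 22-nt fragments. Of 23 tested fragments of 22 nt ending in CCA, 3 were higher and 1 lower, with a median log2 fold change of 0.38 and 19 above 0. Of 20 of 18 nt ending in CCA none was called by edgeR, with a median of −0.19 and 4 above 0, and the median of all 290 was 0.01. tRF-22-8EKSPM852 ran from 1024 through 2006 to 2562 CPM in AM132 and from 745 through 1142 to 1451 CPM in AM608 (log2 fold change 0.75, SE 0.192, edgeR adjusted p = 0.0405). The 18-nt fragment with the same 3′ end, tRF-18-8R6Q46D2, the second most abundant tRF, had 0.06 and did not pass (edgeR adjusted p = 0.84). tRF-22-WEKSPM852, named here after its value was seen, ran from 8473 through 12610 to 15770 CPM in AM132 and from 3888 through 8699 to 9433 CPM in AM608, higher by 0.69 (SE 0.19, edgeR adjusted p = 0.0426). tRF-21-WEKSPM85D and tRF-22-WE8SPOL52 rose by 0.92 and 0.67 (SE 0.244 and 0.179, edgeR adjusted p = 0.0405 and 0.0411). tRF-22-WEKSP1852 fell by 1.04 on the log2 scale (SE 0.262, edgeR adjusted p = 0.0405), from 222 through 826 to 1075 CPM in AM608 to 296 through 366 to 445 CPM in AM132.

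Of the last 2 fragments, tRF-30-34HWH3RXSINH of tRNA-His ran from 1181 through 2645 to 3911 CPM in AM132 and from 626 through 1009 to 1523 CPM in AM608, with a log2 fold change of 1.32, with an SE of 0.266 (edgeR adjusted p = 9.19e-03). The groups overlapped slightly. tRF-16-MNH5SYD, from inside tRNA-Val, rose by 1.00 (SE 0.267, edgeR adjusted p = 0.0405), and the 21-nt fragment with the same start had 0.21 (edgeR adjusted p = 0.807).

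**Figure D5:**
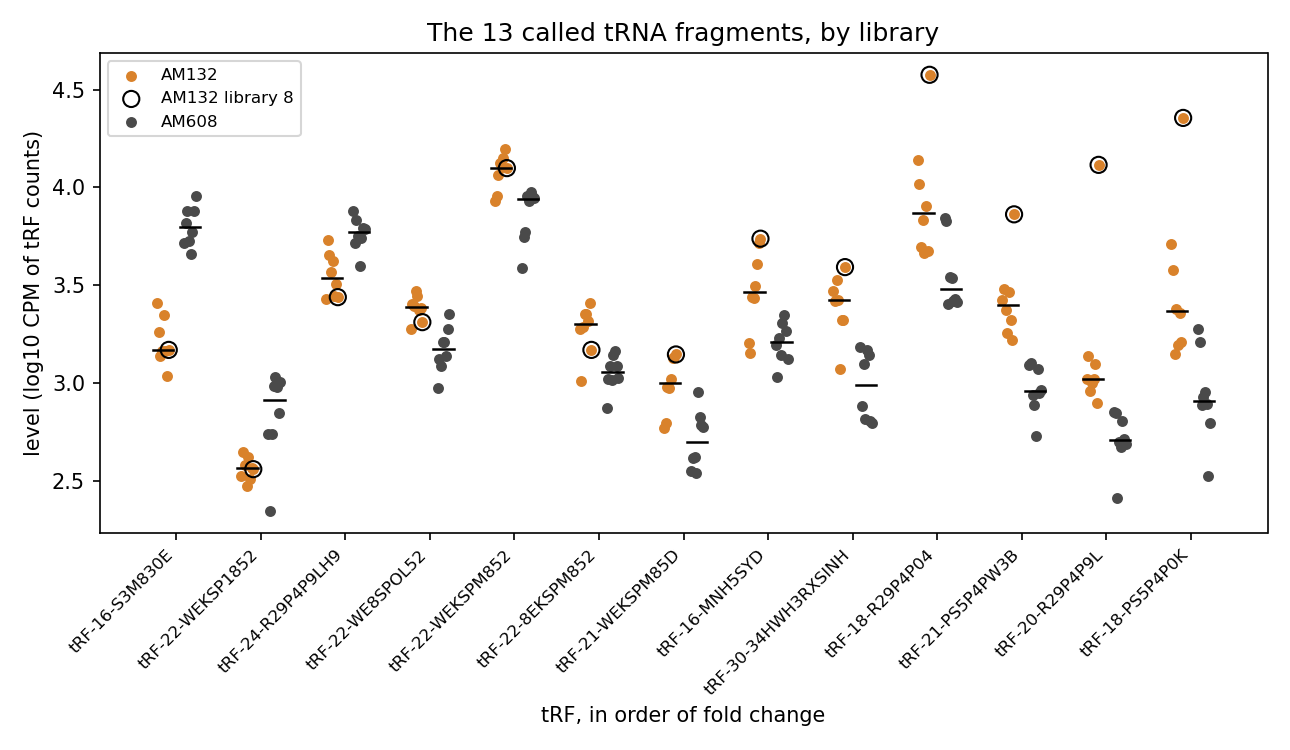
Level of each of the 13 called tRFs in each library (vertical axis, log10 CPM of the tRF counts), ordered by fold change, for AM132 and AM608, with the group medians as bars and AM132 library 8 ringed. tRF-16-S3M830E, at the left, is lower in every AM132 library, and in the 5′ fragments of tRNA-Ala and tRNA-Lys(TTT) at the right AM132 library 8 is the highest point, at 13030 CPM for tRF-20-R29P4P9L and 22640 CPM for tRF-18-PS5P4P0K.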

How the data were processed

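Small RNA was sequenced from 24 livers, with NEBNext small RNA libraries made from 300 ng of RNA (RIN above 8.4) and read on a NextSeq 500, per the labels' protocols. The authors deposited raw read counts per miRNA and per tRF, and the analysis started from those counts. FastQC is the one tool in the submitters' processing notes, while for the aligner, the counting rule and the build the entry is: not given in the sources used here. Reads that match several mature miRNAs may therefore be counted in each or shared.

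Groups were taken from the labels. Features that passed edgeR's filter on low counts (399 miRNAs, 290 tRFs) were compared over the 16 AM132 and AM608 libraries by edgeR's quasi-likelihood test with TMM factors and Benjamini-Hochberg adjustment, at 0.05. Log2 ratios of 5p to 3p counts (pseudocount 0.5) were tested with limma in 103 hairpins. R 4.3.3, edgeR 4.0.16, limma 3.58.1 and DESeq2 1.42.0 were used, and adjusted p-values that DESeq2 gave as missing were kept so. In 5 simulations of each table, 96.4% of miRNAs and 76.7% of tRFs changed by 1 on the log2 scale were recovered, 100% and 98.1% of those changed by 2, and 2.83% and 2.51% of the calls were false. The 56 within-group pairs of libraries differed beyond counting noise, with a lowest chi-square per degree of freedom of 30.5 for miRNAs and 1.88 for tRFs.

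Of the tested miRNAs, 350 had a RefSeq sequence, and 7 higher and 6 lower calls were among the 49 that had none. Hairpins were placed on GRCm38 with GENCODE M21. tRF sequences were decoded from their names, and all 8456 names encoded back unchanged. Named features were the miR-132, miR-212, miR-192, miR-194 and miR-122 products, the 15 higher and 20 lower calls with the smallest p, all calls above 1 in size on the log2 scale and called list members, with their other arms, 10 arm ratios, up to 8 called tRFs in each direction (8 higher and 3 lower) and the 10 most abundant tRFs. Names outside this rule, such as uncalled list members and uncalled miRNAs that resemble miR-132-3p, were chosen after their values were seen. The members and lists were chosen with earlier results of these data known. Alternatives were other scalings (RLE factors, library totals), DESeq2, other filters, all 24 libraries in the fit, a replicate block and leaving out AM132 library 8 or library 1, the last chosen after seeing the data.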

Additional observations from a re-analysis of the deposited data

Results flagged for a closer look

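In 216 groups of 8 libraries, each for a named feature, single libraries standing apart from their group were looked for by the gap to the next library relative to the range. Chance gives such a gap in about 1 of 20 groups. AM132 library 1 was set apart as the highest of its group for let-7a-1-3p and the identical let-7c-2-3p (26.52 CPM each, with the next library at 12.33), miR-139-5p (441.0 CPM, next 269.7), miR-25-3p (1174 CPM, next 931.4), let-7f-2-3p (3.009 CPM, next 1.333), miR-455-3p (313.9 CPM, next 99.42) and let-7e-3p (11.28 CPM, next 7.5). All 7 of these were lower in AM132 as a group, so library 1 lay on the side of AM608. What sets it apart was not tested.

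AM132 library 8 was highest for the tRFs tRF-21-PS5P4PW3B (7278 CPM), tRF-18-PS5P4P0K (22640 CPM) and tRF-20-R29P4P9L (13030 CPM), and lowest for tRF-26-86J8WPMN1EE (33540 CPM) and tRF-27-86J8WPMN1E5 (4429 CPM). It also had the highest ratio of tRFs, at 12.42 per 1000 miRNA counts, with the next AM132 library at 5.348. Among miRNAs the same library was highest for miR-148a-5p (314.3 CPM), miR-192-3p (18.28 CPM) and miR-574-3p (113.2 CPM), and lowest for let-7c-5p (9009 CPM) and let-7a-5p (14100 CPM).

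The other libraries that stood apart did so for 1 or 2 features each. These were AM132 library 5 for miR-132-5p (lowest, 15.66 CPM) and miR-101b-3p (highest, 11120 CPM), and AM132 library 2 for miR-582-5p (highest, 2.5 CPM) and miR-30d-3p (lowest, 34.33 CPM). In AM608 they were library 1 for let-7f-1-3p (highest, 9.773 CPM) and tRF-30-PSQP4PW3FJI0 (highest, 85670 CPM), library 2 for miR-125b-2-3p (lowest, 25.02 CPM), library 7 for miR-146b-5p (highest, 584 CPM) and library 8 for miR-28a-5p (highest, 355.9 CPM).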

How the results depend on the processing

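No named feature that was called in the main comparison changed sign under an alternative run for it, except with library totals. Arm ratios were run with another pseudocount, another filter, the replicate block and without AM132 library 8, and tRFs were not run without AM132 library 1. Library totals gave 12 higher and 117 lower miRNAs and turned the called miR-101a-3p (−0.03) and miR-26a-5p (−0.04). They also turned let-7f-5p (−0.16) and let-7b-5p (−0.18), which were called lower only there. Some values that were not called changed sign too, such as let-7a-5p with library totals (−0.08) and let-7d-5p with RLE factors (0.01). With all 24 libraries in the fit 52 miRNAs were called, 17 of them higher, and 51 of the 52 were among the 87. DESeq2 called 101 miRNAs, all 87 among them, and RLE factors called 87, of which 82 were shared. For tRFs, DESeq2 called 20, 5 of them lower, and all 13 were among them. With no filter (7578 tRFs tested) 146 tRFs were called, 136 higher and 10 lower, and with a mean of at least 10 CPM (2345 tested) 5 were called, 3 higher. Of the 13, 7 and 3 were kept. Scaling the tRFs by the miRNA library size left 1 lower and moved the median of all tested tRFs by 0.23. The cause of these differences was not tested.

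Sample numbers were checked for pairing. Deviations of same-numbered AM132 and AM608 libraries correlated from −0.44 to 0.32 for miRNAs and from −0.19 to 0.48 for tRFs, above 0.1 in 2 and 3 of 8 pairs, and 1 and 2 of the pairs matched best with their own number. Most libraries thus did not match best with the library of their own number. Whether samples of the same number were matched by design was not tested, and the labels do not state it. With the replicate block 68 miRNAs were called, 23 of them higher, 67 shared with the 87. The block left 5 tRFs, 4 higher and 1 lower, and 28 arm ratios, all of them among those called without it.

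Leaving out AM132 library 8 or library 1 gave 73 to 86 called miRNAs, of which 72 and 80 were shared. Without library 8 there were 15 tRFs (12 shared) and 30 arm ratios (29 shared). tRF counts, at most 80578 per library, limit the precision for single fragments, and 10 of the 13 called tRFs have an edgeR adjusted p of 0.0405 to 0.0458.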
